A study of Mus musculus with 167 samples.

Results

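Igh V gene transcripts and all other transcripts of immature B cells were compared between mice whose heavy chain locus carries the V8-8-inv, V8-8 or + allele. These are 6 of the 44 RNA libraries and of the 167 samples in the series, and 17 of the 44 come from immature B cells. They were chosen by genotype: Igh(V8-8-inv/delta890), Igh(V8-8/delta890) and Igh(+/delta890), with 2 libraries each. The mice are C57BL/6, and the cells were sorted by flow cytometry from bone marrow, without culture. The delta890 allele is on the other chromosome in every library, controls included, so no library has 2 unmodified Igh alleles. The construction of the V8-8, V8-8-inv and delta890 alleles, the age of the mice and the number of mice behind a library are unstated in the labels read here. Nothing says that the libraries of a genotype come from separate animals, so p-values measure the spread between libraries, which may be technical.

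An antibody heavy chain gene is assembled in the developing B cell by joining 1 V gene, 1 D segment and 1 J segment of the Igh locus, and each mature heavy chain message carries the V gene that was joined. V genes lie in a long array on mouse chromosome 12, with the Ighv2 and Ighv5 families nearest to the D segments and large stretches of Ighv1 genes, mixed with Ighv8 genes, at the far end. Loop extrusion by cohesin, which pauses at CTCF sites depending on their direction, brings distant V genes to the joining site, and V gene orientation decides whether a join deletes or inverts the DNA between.

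Ighv8-8 is a V gene of the far part of the array. On build mm9 it occupies chr12:116532289-116532709 on the minus strand, with a leader exon of 40 bases (chr12:116532670-116532709) and a V exon of 296 bases (chr12:116532289-116532584). It lies 302.7 kb from Ighv1-47, the nearest V gene toward the D segments that both mutants still express. The ends of 5 V genes, read from mm9, are shown because these are the sites where joining cuts: Ighv8-8, its family member Ighv8-12, the nearest retained genes Ighv1-47 and Ighv1-80 on either side, and Ighv1-12, which was higher in both mutants. All are on the minus strand. Capitals mark the heptamer of the recombination signal and the 9 bases in the nonamer's place after a spacer of 23 bases.
Ighv8-8, chr12:116532234-116532284: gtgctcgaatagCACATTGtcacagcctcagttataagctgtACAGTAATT
Ighv8-12, chr12:116886117-116886167: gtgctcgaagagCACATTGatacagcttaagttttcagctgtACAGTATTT
Ighv1-12, chr12:115854022-115854072: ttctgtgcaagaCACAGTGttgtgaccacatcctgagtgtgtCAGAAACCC
Ighv1-47, chr12:116229280-116229330: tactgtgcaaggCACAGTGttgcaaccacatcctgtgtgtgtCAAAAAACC
Ighv1-80, chr12:117150516-117150566: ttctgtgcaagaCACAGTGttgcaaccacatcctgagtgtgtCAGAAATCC
Both Ighv8 genes have the heptamer CACATTG and the Ighv1 genes have CACAGTG. A heptamer was found at the end of 87 of 113 Ighv rows, as CACAGTG in 78 of them and as CACATTG in 4.

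The 100 bases before the annotated start of Ighv8-8 (chr12:116532710-116532809, minus strand) are shown because the transcript level of this gene separates the genotypes. Capitals mark the octamer ATGCAAAT, a motif of immunoglobulin promoters, and the ATG 6 bases before the annotated start.
Ighv8-8: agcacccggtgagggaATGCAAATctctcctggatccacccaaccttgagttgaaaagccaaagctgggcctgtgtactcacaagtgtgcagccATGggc
The octamer begins 84 bases before the annotated start. It was found on either strand within 150 bases before the start in 61 of the 78 Ighv rows annotated over more than 390 bases, which is 78.2%. In the authors' CTCF peak lists of 2 libraries of cultured wild-type pro-B cells, on mm9, the peak nearest to Ighv8-8 lay 26195 and 26190 bases away. The peak nearest to Ighv1-47 lay 5458 and 5452 bases away, and the one nearest to Ighv1-80 lay 2736 and 2679 bases away.

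The files hold TPM, transcript abundance scaled by the authors for gene length and library size, with 15224 to 15619 of 24732 rows above 0 in a library; read depth is unknown. Tests used limma on log2(TPM + 1) over the 11895 rows at 1 TPM or more in at least 2 of the 6 libraries, with the 3 genotypes in 1 fit, and a row was called at a Benjamini-Hochberg adjusted p under 0.05. Differences on this scale understate the change of low genes. All 14 B lineage markers were above the filter, with Cd79a, a signalling subunit of the antigen receptor, at 9710.2 and 11460.3 TPM in V8-8-inv, 9174 and 9277 TPM in V8-8, and 9872 and 10048 TPM in + cells. Transcripts of both sexes were present in 5 of the 6 libraries; Xist had 5.30 and 19.1 TPM in V8-8-inv, 49.9 and 35.4 TPM in V8-8, and 47.6 and 4.91 TPM in + cells.

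The libraries did not group by genotype alone, and this touches every comparison below. In the labels the library numbers run from a control to the V8-8 pair, then the other control and the V8-8-inv pair, and no batch is named. The SD of the log2 difference over the rows tested was 0.342 and 0.372 between the V8-8 libraries and control library 1, against 0.452 and 0.456 between the V8-8 libraries and control library 2. V8-8-inv libraries differed by 0.380 and 0.392 from control library 2, and by 0.448 and 0.479 from control library 1. The controls differed from each other by 0.440 and the V8-8 libraries by 0.274. Each mutant pair was thus closer to the control numbered just before it, and the controls were further apart than the V8-8 libraries were.

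Ighv8-8 transcripts were lowest in V8-8-inv cells, intermediate in V8-8 cells and highest in + cells. Ighv8-8 had 6.09 and 6.16 TPM in V8-8-inv, 62.7 and 66.5 TPM in V8-8, and 167 and 183 TPM in + cells. The genotypes did not overlap. With 2 libraries each, the closeness of values within a genotype does not measure counting noise, which was not estimated. Means were 6.13 ± 0.0455 TPM in V8-8-inv, 64.6 ± 2.70 TPM in V8-8 and 174.9 ± 11.9 TPM in + cells (SD, n = 2 each). The V8-8-inv mean was 9.48% of the V8-8 mean and 3.50% of the + mean, and the V8-8 mean was 36.9% of the + mean. In sorted populations, fewer cells that use the gene and less of its RNA per cell cannot be told apart.

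The difference between the mutants, whose estimate uses no control library, was -3.20 ± 0.10 on the log2 scale (SE, limma adjusted p = 0.000272). Its SE and p-value use the spread within all 3 genotypes, controls included. Against + cells the difference was -4.62 ± 0.10 for V8-8-inv (SE, limma adjusted p = 2.51e-05) and -1.42 ± 0.10 for V8-8 (SE, limma adjusted p = 0.00237). Both of these share the + libraries. As a share of the summed TPM of all Ighv rows, Ighv8-8 took 0.0781% and 0.0830% in V8-8-inv, 0.720% and 0.786% in V8-8, and 2.45% and 2.38% in + libraries. Without V8-8 library 1, V8-8 library 2 or + library 2 the V8-8 difference from + kept its direction and missed the threshold in limma, at adjusted p = 0.0675, 0.051 and 0.0969. The difference between the mutants stayed past it in all 19 settings, at a highest adjusted p of 0.0167 in limma.

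Ighv8-8 has near-identical copies, which makes its level uncertain where reads could be split among them, and no source read here states how the authors treated such reads. Over its 296-base V exon it is 96.3% identical to Ighv8-5, 95.9% to Ighv8-11, 94.9% to Ighv8-12 and Ighv8-13, 93.9% to Ighv8-9 and 93.2% to Ighv8-6. Of these, Ighv8-13 alone was above 0 in a mutant library, with 0 and 0.379 TPM in V8-8-inv, 2.57 and 0.789 TPM in V8-8, and 5.59 and 9.09 TPM in + cells.

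**Figure D1:**
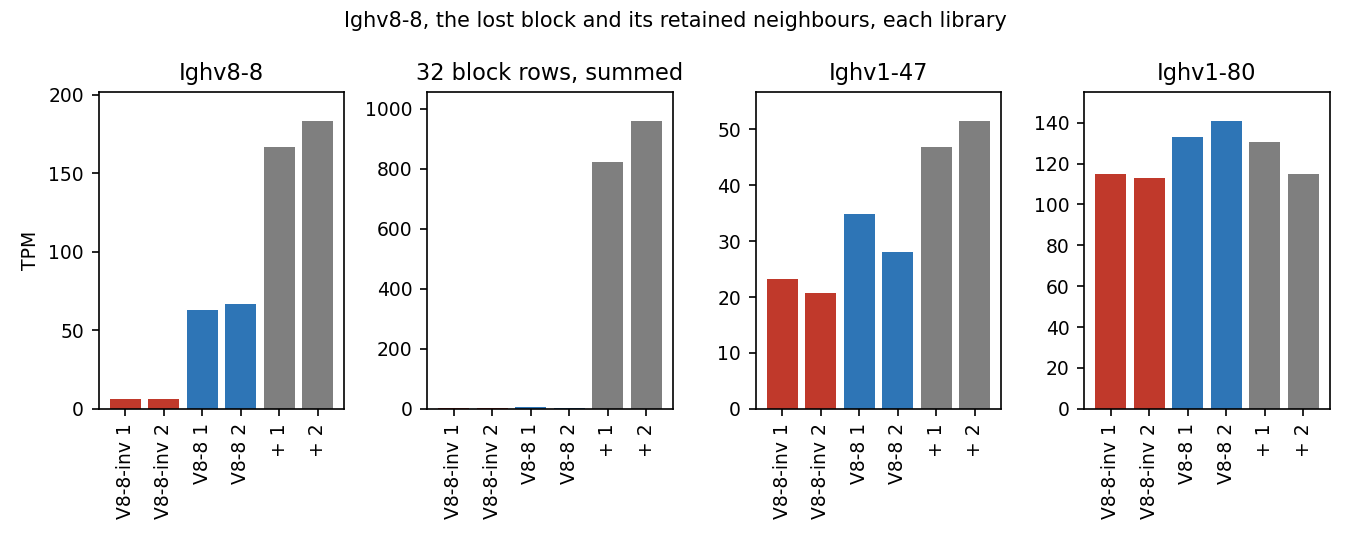
TPM in each library (1 bar each) of Ighv8-8, of the 32 block V gene rows summed, and of the retained neighbours Ighv1-47 and Ighv1-80. Ighv8-8 stands at 6.09 and 6.16 TPM in V8-8-inv, 62.7 and 66.5 TPM in V8-8 and over 160 TPM in +, the block sum is under 5 TPM in the 4 mutant libraries, and Ighv1-80 overlaps between V8-8-inv and + libraries.

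The V genes on either side of Ighv8-8 were nearly absent in both mutants. This block of 32 Ighv rows, from Ighv1-49 to Ighv1-78 without Ighv8-8, spans 813.8 kb (chr12:116293434-117107277, mm9) and was delimited from V(D)J joins of the same alleles in pro-B cells. Its summed transcripts were 0.975 and 3.00 TPM in V8-8-inv, 4.61 and 3.14 TPM in V8-8, and 823.5 and 959.6 TPM in + libraries. As a share of all Ighv TPM the block took 0.0125% and 0.0404% in V8-8-inv, 0.0529% and 0.0372% in V8-8, and 12.1% and 12.4% in + libraries. Mutants and controls did not overlap. The difference from + was -12.2 percentage points for each mutant (exact two-sided permutation p = 0.33, the smallest that 2 libraries against 2 allow) and for the 4 mutant libraries together (exact p = 0.1333, the smallest for 4 against 2). Between V8-8-inv and V8-8 it was -0.0186 percentage points, with overlapping libraries (exact permutation p = 0.6667).

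Over all rows tested, 26 were called for V8-8-inv against + (0.219%), 1 of them higher (0.00841%) and 25 lower (0.21%). For V8-8 against +, 28 were called (0.235%), 6 of them higher (0.0504%) and 22 lower (0.185%), and 23 rows were in both lists. For the 4 mutant libraries together, 32 were called (0.269%). The counts changed with the control libraries used: without + library 1 limma called 14 rows for V8-8-inv and 542 for V8-8, and without + library 2 it called 2081 for V8-8-inv and 0 for V8-8. Block rows were 20 of the 26 and 19 of the 28. Of the 32 block rows 24 passed the filter, and they did so through the + libraries. These counts, and the p-values of block rows, thus follow in part from the filter. The other 8 rows were under 1 TPM in at least 5 libraries.

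Ighv1-55, the block gene with the highest level in controls, had 0 and 0 TPM in V8-8-inv, 0.317 and 0 TPM in V8-8, and 92.3 and 151 TPM in + cells (limma adjusted p = 0.000118 for V8-8-inv and 0.000152 for V8-8). Ighv1-64 kept a trace in every mutant library, with 0.324 and 1.96 TPM in V8-8-inv, 0.635 and 1.02 TPM in V8-8, and 93.9 and 106 TPM in + cells, a log2 difference of -5.67 ± 0.37 for V8-8-inv and -5.79 ± 0.37 for V8-8 (SE; limma adjusted p = 0.00143 for V8-8-inv and 0.00133 for V8-8). Ighv1-69 had 0.327 and 0 TPM in V8-8-inv, 0.320 and 0 TPM in V8-8, and 54.5 and 69.4 TPM in + cells. Every control library was above 50 TPM for these genes, and no mutant library reached 2 TPM.

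Others were listed at 0 in all 4 mutant libraries. In + libraries Ighv8-12 had 86.3 and 93.8 TPM, Ighv1-53 had 56.6 and 80.3 TPM and Ighv1-75 had 53.0 and 71.0 TPM. Ighv1-76 had 49.1 and 48.6 TPM and Ighv1-54 had 43.4 and 46.7 TPM there. Each was called in both comparisons, with limma adjusted p between 3.9e-05 and 8.78e-05. Gm16710, an immunoglobulin row within the block that has no Ighv name in the files, was likewise listed at 0 in the mutants, with 46.4 and 45.7 TPM in + libraries, and was called in both. All of these rows, Gm16710 included, passed the filter through the + libraries alone. Being 0 in every mutant library, they take their own spread from the + pair alone. Their p-values thus follow in part from the filter and from that spread.

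**Figure D2:**
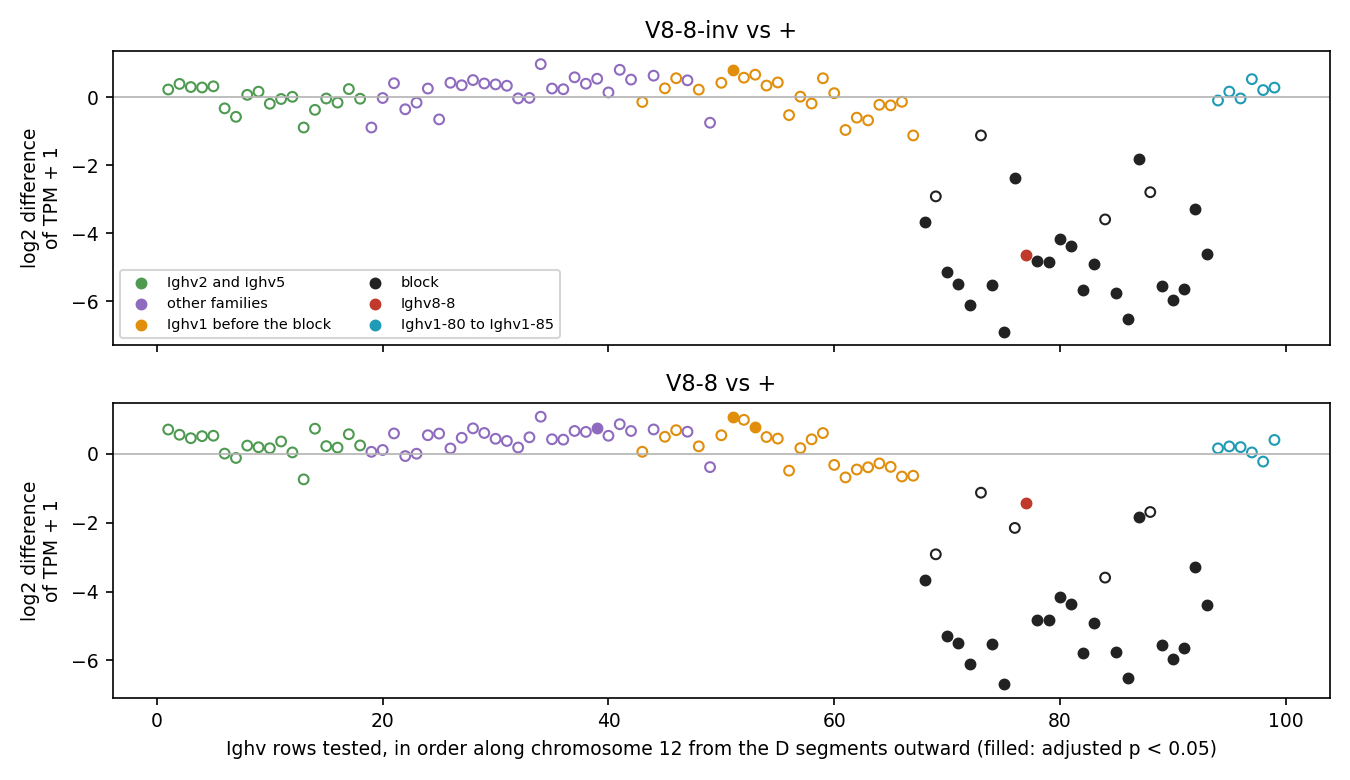
Log2 difference of TPM + 1 from + cells for each Ighv row tested (1 point each), ordered along chromosome 12 from the D segments outward, for V8-8-inv (top) and V8-8 (bottom); filled points have a limma adjusted p under 0.05. Block rows are low in both panels, and Ighv8-8 lies among them at -4.62 for V8-8-inv and above most of them at -1.42 for V8-8.

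V genes outside the block had more transcript in the mutants when summed, and few of them passed the test singly. The 80 retained Ighv rows, those outside the block other than Ighv8-8, summed to 7791 and 7411 TPM in V8-8-inv, 8642 and 8388 TPM in V8-8, and 5812 and 6576 TPM in + libraries. All mutant libraries were above both controls. With the block and Ighv8-8 included, Ighv rows summed to 7798 and 7420 TPM in V8-8-inv, 8709 and 8458 TPM in V8-8, and 6802 and 7719 TPM in + libraries, and V8-8-inv overlapped the controls.

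Of the 73 retained rows tested, 1 was called for V8-8-inv and 3 for V8-8, all higher than in +. Ighv1-12 had 245 and 274 TPM in V8-8-inv, 307 and 324 TPM in V8-8, and 152 and 146 TPM in + cells. It rose by 0.80 ± 0.09 in V8-8-inv (SE, limma adjusted p = 0.0336) and by 1.08 ± 0.09 in V8-8 (SE, limma adjusted p = 0.00534) on the log2 scale. Ighv1-15 had 351 and 383 TPM in V8-8-inv, 429 and 378 TPM in V8-8, and 238 and 226 TPM in + cells, and Ighv13-2 had 173 and 169 TPM in V8-8-inv, 204 and 193 TPM in V8-8, and 117 and 118 TPM in + cells. In both, each mutant library was above each control. Both passed for V8-8 (limma adjusted p = 0.0466 and 0.0197) and missed the threshold for V8-8-inv (0.103 and 0.103), and neither was called between the mutants. Over 19 settings Ighv1-12 was called in 10 for V8-8-inv and 15 for V8-8, and for V8-8 Ighv1-15 was called in 8 and Ighv13-2 in 10.

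Many other retained rows were higher in the mutants without passing. Both V8-8-inv libraries were above both controls for 33 of the 73, where this held for 5.47% of all rows tested, and below both for 12, against 29.2% of all rows. For V8-8 they were above for 45, against 11.6% of all rows, and below for 7, against 10.2%. All 4 mutant libraries were above both controls for 31 rows, against 1.66% of all rows, and below both for 5, against 4.32%. The median log2 difference of the 73 was 0.20 for V8-8-inv and 0.40 for V8-8, beside medians of -0.11 and 0.03 over all rows tested. Between V8-8-inv and V8-8, 66 of the 73 lay below 0, where 8889 of the 11895 rows tested did. Their median was -0.18, beside -0.15 over all rows.

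Along the array, the 18 rows tested of the Ighv2 and Ighv5 families had medians of -0.02 for V8-8-inv and 0.24 for V8-8, and the 27 of the families beyond them 0.35 and 0.53. Of the 14 tested Ighv1 rows from Ighv1-2 to Ighv1-26, 11 lay above 0 for V8-8-inv, where 2950 of the 11895 rows tested did. For V8-8, 13 of the 14 lay above 0, where 7274 of the 11895 did. The rows from Ighv1-31 to Ighv1-47, a stretch next to the block that was picked after its values were seen, were below 0 for V8-8-inv in 7 of 8 tested, Ighv1-31 being the exception, where 8938 of the 11895 rows tested were, so the count for V8-8-inv is near that of all rows. For V8-8 they were below 0 in 8 of 8, where 4620 of the 11895 were. The medians of the stretch were -0.43 and -0.42, and none of its rows was called.

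Ighv1-47 ends this stretch, 63.8 kb from the first block gene. It had 23.2 and 20.7 TPM in V8-8-inv, 34.9 and 28.0 TPM in V8-8, and 46.8 and 51.5 TPM in + cells, and the genotypes did not overlap. The log2 difference from + was -1.13 ± 0.14 for V8-8-inv (SE, limma adjusted p = 0.0566) and -0.64 ± 0.14 for V8-8 (SE, limma adjusted p = 0.634), neither past the threshold, although V8-8-inv passed it in 3 of 19 settings. The next rows inward overlapped more. Ighv1-43, low in every library, had 1.55 and 1.56 TPM in V8-8-inv, 0.758 and 0.813 TPM in V8-8, and 1.54 and 2.13 TPM in + cells. Ighv1-42 had 58.4 and 40.3 TPM in V8-8-inv, 42.4 and 45.9 TPM in V8-8, and 41.4 and 80.1 TPM in + cells, with the controls furthest apart.

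On the far side, 43.3 kb beyond the last block gene, Ighv1-80 had 115 and 113 TPM in V8-8-inv, 133 and 141 TPM in V8-8, and 131 and 115 TPM in + cells. Ighv1-81 had 177 and 153 TPM in V8-8-inv, 154 and 189.9 TPM in V8-8, and 145 and 149 TPM in + cells. Ighv1-82 had 135 and 134 TPM in V8-8-inv, 148 and 169.9 TPM in V8-8, and 148 and 129 TPM in + cells. None of the 6 rows from Ighv1-80 to Ighv1-85 was called in any comparison. Together they took 6.31% and 6.24% of the TPM of retained Ighv rows in V8-8-inv, 5.82% and 6.76% in V8-8, and 8.23% and 6.74% in + libraries, so the V8-8 and + libraries overlapped.

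**Figure D3:**
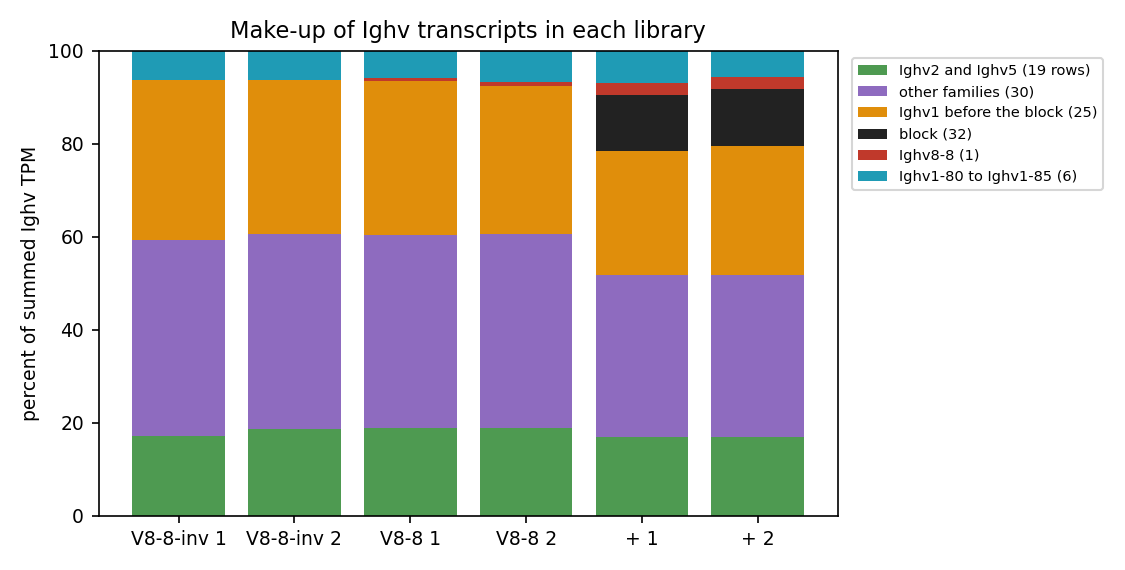
Percent of the summed Ighv TPM taken by each stretch of the array in each library, stacked to 100%. The block takes 12.1% and 12.4% in + libraries and under 0.1% in the 4 mutant libraries, and the families beyond Ighv2 and Ighv5 take 42.2% and 41.8% in V8-8-inv, 41.7% and 41.6% in V8-8, and 34.7% and 34.9% in + libraries.

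Other measurements of the series are set beside these values without a test across assays. In V(D)J joins of pro-B cells homozygous for each allele, Ighv8-8 took a median of 0.0139% in 4 Igh(V8-8-inv/V8-8-inv) libraries (range 0.00295% to 0.0267%), 0.171% in 3 Igh(V8-8/V8-8) libraries (0.148% to 0.233%) and 0.541% in 5 Igh(+/+) libraries (0.469% to 0.620%), as the percent the authors deposited. The genotypes did not overlap, in the same order as the transcripts. As a share of all Ighv values, the measure used next for the block, the Ighv8-8 medians were 0.0619%, 0.499% and 1.225% in that order. One of the V8-8-inv libraries carries further genotype text in its label. The block took 0.363% to 0.462% of the Ighv values in V8-8-inv, 0.501% to 0.534% in V8-8 and 16.7% to 19.5% in + joins. Because the block was delimited from joins of these alleles, its low share in mutant joins is not a separate result. In 5 Igh(+/+) immature B cell libraries from other experiments, Ighv8-8 had 236.9 to 351.4 TPM and the block 17.7% to 19.8% of Ighv TPM. Both Igh(+/delta890) libraries were below those ranges.

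Of the D segments, Ighd4-1, the one nearest to the J segments, had 31.0 and 20.9 TPM in V8-8-inv, 40.5 and 43.4 TPM in V8-8, and 113 and 91.1 TPM in + cells. It was lower in V8-8-inv than in + by a log2 difference of -1.95 ± 0.20 (SE, limma adjusted p = 0.0199), and missed the threshold for V8-8 (-1.25 ± 0.20, limma adjusted p = 0.161). No other tested D or J row of the heavy chain was called in these comparisons.

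None of the 6 tested heavy chain constant genes was called. Ighm, the constant region of the immature receptor, had 15416 and 15572 TPM in V8-8-inv, 14812 and 14633 TPM in V8-8, and 13764 and 15405 TPM in + cells. Ighd, whose product appears on the surface as B cells mature, had 211 and 218 TPM in V8-8-inv, 248 and 251 TPM in V8-8, and 298 and 292 TPM in + cells. Ighd did not overlap between the genotypes, yet its limma adjusted p was 0.15 for V8-8-inv and 1 for V8-8 against +.

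Light chain genes were not called either. This holds for 98 kappa V rows, 3 lambda V rows and 4 constant genes. Igkc, the kappa constant region, had 19875 and 17265 TPM in V8-8-inv, 16987 and 16531 TPM in V8-8, and 14681 and 19007 TPM in + cells. Iglc1, a lambda constant region, had 4420.3 and 4607 TPM in V8-8-inv, 3888 and 3791 TPM in V8-8, and 3291 and 1973 TPM in + cells. For it, Iglc2 and Iglc3 the mutant libraries were all above both controls, where this held for 1.66% of all rows tested. Control library 2 was the lowest for lambda V rows, which summed to 1096 and 1125 TPM in V8-8-inv, 1196 and 1263 TPM in V8-8, and 1175 and 513.9 TPM in + libraries.

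Outside the immunoglobulin loci the called rows were all small RNA genes at a few TPM. Of the 11377 tested rows that are neither, limma called 0 for V8-8-inv against +, for V8-8 against + and for V8-8-inv against V8-8, while over all rows tested 723, 220 and 1749 had an unadjusted p under 0.05. Mir6972 was listed at 0 in both mutants, with 3.53 and 5.87 TPM in + libraries. Mir761 had 1.497 and 1.51 TPM in V8-8-inv, 5.86 and 6.29 TPM in V8-8, and 0 and 0 TPM in + cells, and was called for V8-8 (limma adjusted p = 0.00167). Mir7078 and Mir6996 were above 0 in V8-8 libraries alone, at 6.96 and 5.60 TPM and at 3.65 and 3.92 TPM. Scarna9, a small RNA of Cajal bodies, had 0 and 0 TPM in V8-8-inv, 5.31 and 5.69 TPM in V8-8, and 8.06 and 5.96 TPM in + cells. At these levels, near-equal libraries of a genotype may hold the same few reads, so their small spread does not measure counting noise. The p-values of these small RNA rows rest in part on that spread. Mir7078 and Mir6996 passed the filter through the V8-8 libraries alone and Mir6972 through the + libraries alone, so for these rows a difference follows in part from the filter. In the files the names of Mir6972, Mir7078, Mir6996 and Mir6948, like that of Nlrc5, carry a suffix whose meaning no source read here states.

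Between V8-8-inv and V8-8, 5 rows were called (0.042% of those tested), all lower in V8-8-inv: Ighv8-8, Mir7078, Mir6996, Mir6948 and Scarna9. The count was much larger in a fit without the control libraries, and the cause was not tested. Fitted on the 4 mutant libraries alone, 1724 of 11652 rows were called (14.8%), 135 higher (1.16%) and 1589 lower (13.6%) in V8-8-inv, and 1648 of the 1724 were neither immunoglobulin nor small RNA genes. Of the 1724 rows, 95.5% had the same sign in control library 2 minus control library 1, a difference that shares no library with theirs, beside 75.9% of all rows tested. Another alternative, chosen after seeing the data, set each control only against the mutant pair numbered after it. It compares differences from a control, not the mutants directly, and each control there is a single library, so no calls are given. Ighv8-8 differed by -3.20 between the mutants and by 0.14 between the controls on the log2 scale.

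**Figure D4:**
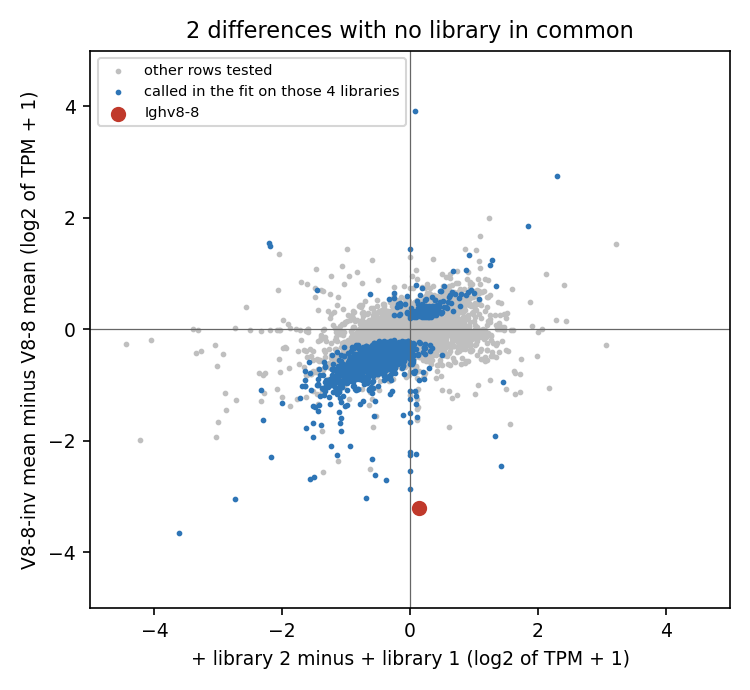
V8-8-inv mean minus V8-8 mean (vertical) against + library 2 minus + library 1 (horizontal), both as log2 of TPM + 1, 1 point per row tested, with the 1724 rows called in the fit on the 4 mutant libraries in blue. Of the blue rows 95.5% have the same sign on both axes, and Ighv8-8 lies at -3.20 on the vertical and 0.14 on the horizontal axis.

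Single genes with a large difference between the mutants in that fit, chosen after their values were seen, did not all follow the controls. Gm1821, with the largest among those neither immunoglobulin nor small RNA genes and at a mean of 20 TPM or more, had 208 and 213 TPM in V8-8-inv, 5.23 and 30.2 TPM in V8-8, and 143 and 151 TPM in + cells, and its controls were close to each other. Slfn8, of the Schlafen family, and Nlrc5, an activator of MHC class I genes, are examples of the other kind. Slfn8 had 14.97 and 15.7 TPM in V8-8-inv, 37.4 and 35.4 TPM in V8-8, and 44.6 and 16.3 TPM in + cells. Nlrc5 had 15.8 and 14.8 TPM in V8-8-inv, 33.9 and 33.3 TPM in V8-8, and 28.6 and 17.9 TPM in + cells. In Slfn8 and Nlrc5, control library 1 was nearer to the V8-8 libraries and control library 2 to the V8-8-inv libraries.

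No member of any gene list examined was called in these comparisons, so the lists are described by their medians. For 26 B cell receptor signalling genes the median log2 difference from + was -0.16 for V8-8-inv and 0.08 for V8-8. For 25 B lineage transcription factors it was -0.12 and -0.06; Spib, an Ets family factor, had 4139 and 4375 TPM in V8-8-inv, 4275 and 4168 TPM in V8-8, and 4298 and 3752 TPM in + cells. For 13 genes of receptor editing and recombination it was -0.07 and 0.08. Over all rows tested the medians were -0.11 and 0.03. Of the 25 transcription factors, 9 were below both controls in V8-8-inv, where 29.2% of all rows were, and 10 in V8-8, where 10.2% were; in all 4 mutant libraries 5 were, where 4.32% of all rows were.

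Genes that organise or neighbour the locus were not called. For 15 cohesin and CTCF genes the median was -0.18 for V8-8-inv and 0.05 for V8-8. Ctcf had 118 and 121 TPM in V8-8-inv, 133 and 132 TPM in V8-8, and 148 and 110.2 TPM in + cells, and Rad21, a cohesin subunit, had 121 and 119.6 TPM in V8-8-inv, 129 and 144 TPM in V8-8, and 148 and 123 TPM in + cells. In both genes the controls spanned a wider range than either mutant pair. Among 9 tested neighbours of Igh, Crip1 had 1679 and 1789 TPM in V8-8-inv, 1512 and 1505 TPM in V8-8, and 1439 and 1489 TPM in + cells.

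For V8-8-inv against +, the interferon and cell cycle lists lay further from the median of all rows, -0.11, than the signalling, transcription factor, recombination and cohesin lists. Lists further still included light chain constant genes, at a median of 0.60, T and innate lymphoid markers, at 0.38, and myeloid markers, at 0.34. So did erythroid and megakaryocyte markers, at 0.25, plasmacytoid dendritic markers, at 0.22, pro-B and pre-B markers, at 0.20, and stromal and endothelial markers, at -0.33. Of 15 tested pro-B and pre-B markers, 5 were above both controls in V8-8-inv, where 5.47% of all rows tested were. Another 2 were below both, where 29.2% of all rows were. For 15 interferon response genes the median was -0.51 for V8-8-inv against V8-8, -0.29 for V8-8-inv against + and 0.27 for V8-8 against +. Ifi27l2a, an interferon-induced gene, had 598 and 698 TPM in V8-8-inv, 1039 and 937 TPM in V8-8, and 921 and 718 TPM in + cells. For 22 cell cycle genes it was -0.32 for V8-8-inv and 0.02 for V8-8 against +, and 19 of the 22 were below both controls in V8-8-inv, where 29.2% of all rows tested were. Pcna, the clamp of DNA replication, had 276 and 243 TPM in V8-8-inv, 294 and 332 TPM in V8-8, and 325 and 301 TPM in + cells. In Ifi27l2a and Pcna control library 2 was below control library 1, and V8-8-inv was below V8-8. The cell cycle genes summed to 1833 to 2012 TPM in V8-8-inv, 2143 to 2378 TPM in V8-8 and 2199 to 2346 TPM in + libraries. The part of the difference between the control libraries in these values was not tested.

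**Figure D5:**
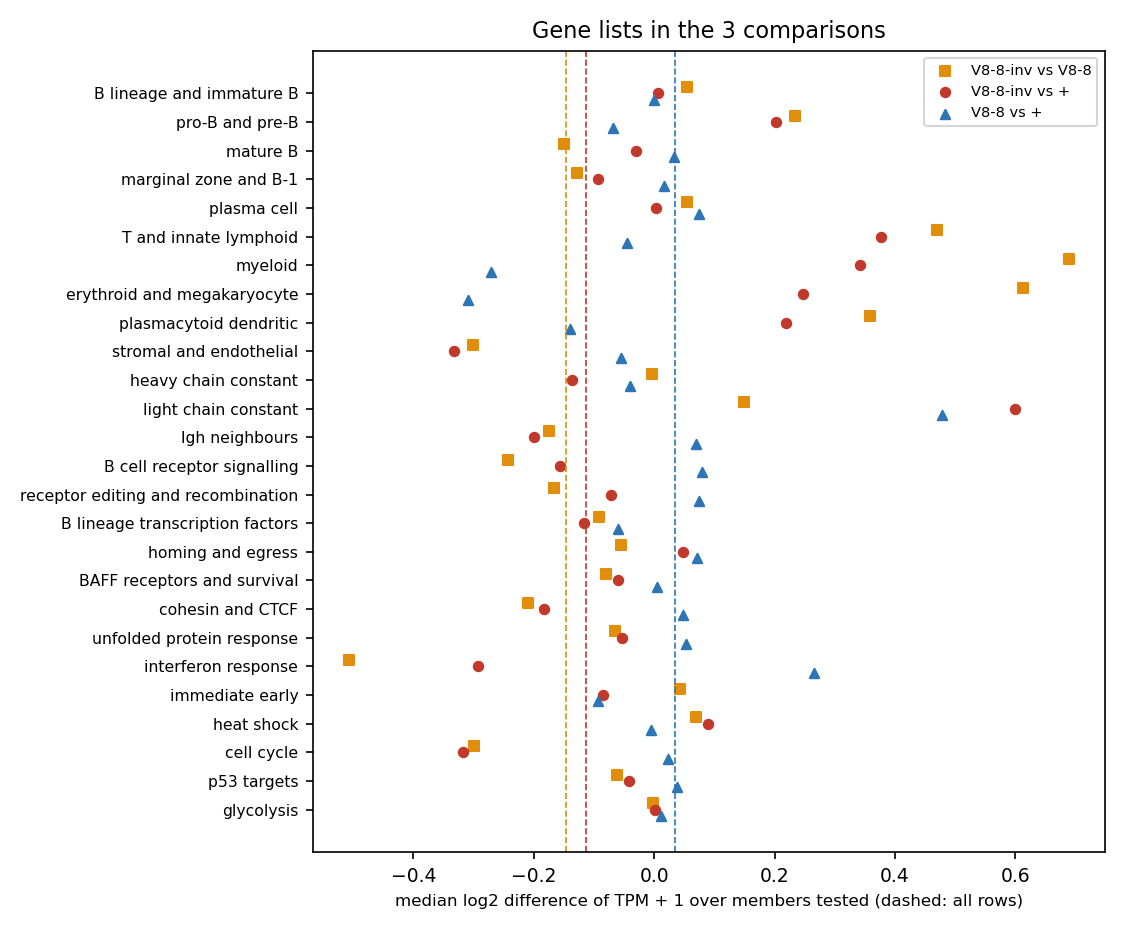
Median log2 difference of TPM + 1 over the tested members of each gene list other than the sex-linked one, for V8-8-inv against V8-8 (squares), V8-8-inv against + (circles) and V8-8 against + (triangles); dashed lines give the medians over all rows tested. Of the lists drawn, for V8-8-inv against V8-8 the myeloid list lies highest at 0.69 and the interferon response list lowest at -0.51, and no member of either was called.

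Markers of other cells varied between libraries, in part along with genotype. The 15 myeloid markers, all above the filter, summed to 2957 to 8787 TPM in V8-8-inv, 2777 to 3265 TPM in V8-8 and 2626 to 5076 TPM in + libraries. S100a9, a neutrophil gene, had 2610.3 and 682 TPM in V8-8-inv, 773 and 864 TPM in V8-8, and 624 and 1284 TPM in + cells. Erythroid and megakaryocyte markers, 5 of 14 of them at 0 in every library, summed to 886.1 to 904.0 TPM in V8-8-inv, 437.8 to 678.3 TPM in V8-8 and 483.1 to 942.5 TPM in + libraries. T and innate lymphoid markers summed to 34.1 to 48.9 TPM in V8-8-inv, 26.8 to 30.6 TPM in V8-8 and 27.8 to 31.8 TPM in + libraries. Both V8-8-inv libraries were above all others in this sum. Of the 10 members tested, 5 were above both controls in V8-8-inv, where 5.47% of all rows tested were. Below both controls was 1 member, where 29.2% of all rows were. The part of these other cells in the differences between genotypes was not tested.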

How the data were processed

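RNA of sorted immature B cells was sequenced in 6 libraries, 2 for each genotype. The authors deposited 1 value per gene row and library, given as TPM, which sums to 1000000 per library. Because the column heading is a library number, these values are recorded as signal, as deposited by the authors. Other RNA files set beside these are TPM as deposited by the authors, the V(D)J files are percent per V gene as deposited, and the CTCF peaks are the authors' lists. The submitters' processing notes name featureCounts 1.5.0, Bowtie 1.0, Bowtie2 2.1.0 and 2.2.9, and builds mm9 and mm10, without roles. Positions and sequences were read from mm9 with GENCODE vM1.

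Tests used limma 3.58.1 in R 4.3.3 with a trended prior on log2(TPM + 1), for rows at 1 TPM or more in at least 2 of the 6 libraries, with all 3 genotypes in 1 fit, and were tested on simulated data. The share of the block was tested by exact permutation, two-sided by doubling the smaller tail. Read depth is unknown, so no counting interval is given. Named V genes were Ighv8-8, the 3 rows on each side of the block, those called between the mutants and the 8 called with the largest change per control comparison and direction; other named genes were those called and the members of each list with the highest mean TPM. The block, the members and the gene lists were chosen with earlier results of these data known.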

Additional observations from a re-analysis of the deposited data

How the results depend on the processing

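Each count was recomputed under 18 alternatives, 2 of them chosen after seeing the data. These 2 left out small RNA rows or set each control only against the mutant pair numbered after it. The latter compares differences from single control libraries, so its count is not given. The number of rows called between V8-8-inv and V8-8, which was 5, became 3 with a pseudocount of 0.1 and 2 with a pseudocount of 5. It became 11 with no filter on low values, 1 with a filter of 5 TPM and 1724 when fitted on those libraries alone. It was 3 with median-of-ratios scaling, 10 with no trend in the prior and 1 without small RNA rows. Leaving out 1 library at a time gave 1 to 1711 rows there, 14 to 2081 for V8-8-inv against + (14 without + library 1 and 2081 without + library 2), 0 to 542 for V8-8 against + (0 without + library 2 and 542 without + library 1), and 4 to 26 for both mutants together against +, which was 32 with all libraries. The cause was not tested. Named genes gave 73 pairs of a gene and a comparison. Over the settings, 1096 of their values stayed on the same side of the threshold, 129 fell short of it and 6 newly passed it. Of the called directions 0 were reversed. Differences that were not called could change sign. For V8-8 against +, that of Ighv1-42 ran from -0.84 to 0.09 on the log2 scale. No paired analysis was possible because the labels give these libraries no shared replicate numbers. Unknown read depth limits what can be said of rows listed at 0.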
